A study of Homo sapiens with 18 samples.

Results

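Control spheroids of the human cell line MDA-MB-231, established from a triple-negative breast cancer, were compared between their second and their first day inside a collagen hydrogel. The comparison takes 6 of the 18 RNA-seq libraries of the study, 3 labelled Wildtype at 48 h in collagen and 3 labelled Wildtype at 24 h in collagen, and its members were chosen by these labels alone. Every spheroid of both groups was formed from 2000 cells over 5 days in hanging droplets, with 100000 cells in a sample, then embedded in collagen and released from it with collagenase at 2 mg/ml and 37 °C. Digestion lasted 10 min and then a further spell until no collagen was visible. The 48 h group therefore differs from the 24 h group both in time in collagen and in total time in culture. All 6 libraries share the digestion protocol, but the length of the further spell is not given and may have differed between the groups. A part of digestion length in the changes cannot be told apart from that of time and was not tested. Libraries of the same conditions from MMP14-targeted spheroids, labelled MMP14-KO, and 3 libraries of control spheroids taken straight from droplets without digestion, were used to place the changes. The labels do not state whether replicates are separate cultures, or whether the targeted cells are 1 clone or a pool, so p-values measure the spread between these samples, which may be technical.

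In a growing cell population, transcripts of the cell cycle are made in waves. Genes for DNA replication, many of them E2F targets, are transcribed as cells enter S phase. Genes for mitosis are held back by repressor complexes that sit on a promoter element named the cell cycle genes homology region (CHR) and are transcribed in G2 and M phase. Immediate-early genes such as FOS and EGR1 are switched on within minutes by growth factors, attachment and mechanical or enzymatic handling, and their mRNAs are short-lived. Cancer cells in fibrillar collagen remodel it with pericellular proteases, above all the membrane-anchored collagenase MMP14 and the secreted collagenase MMP1.

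Markers of the labelled line and of other cell types were read first. The 8 mesenchymal-like markers of the line (VIM, CD44, AXL, CAV1, EGFR, MSN, TGFBI and ANXA1) summed to 8134 to 8521 CPM in 48 h libraries and 7778 to 8234 CPM in 24 h libraries, with 2 members higher and 2 lower at 48 h. Oestrogen receptor, ESR1, and progesterone receptor, PGR, stayed under 1 CPM in all 6 libraries. The markers listed as absent or low in the line summed to 84.5 to 86.9 CPM at 48 h and 91.3 to 93.7 CPM at 24 h, mostly ERBB2, which averaged 71.8 CPM at 48 h and 77.0 CPM at 24 h. Luminal epithelial markers summed to 1465 to 1473 CPM at 48 h and 1388 to 1434 CPM at 24 h, mostly the keratins KRT8, KRT18 and KRT19, and 0 members of either set passed the test. Fibroblast markers summed to 37.6 to 38.6 CPM at 48 h and 43.9 to 52.8 CPM at 24 h, with DCN at 0 in every 48 h library, and the part of these sets in the results was not tested. The 8 leukocyte markers summed to 107 to 127 CPM at 48 h and 119 to 136 CPM at 24 h, mostly CD68, a lysosomal protein that is not restricted to leukocytes, with 3 of the 8, CD3E and NKG7 among them, at 0 in all 6 libraries and 0 called. Total counts ran between 23785576 and 26313976 at 48 h and between 24196607 and 33352163 at 24 h, and the tested genes held over 99.9% of the counts of each library.

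On the second day in collagen, the mitosis genes that changed were mostly higher and the DNA replication genes that changed were mostly lower. Immediate-early factors, inflammatory genes, collagens, metalloproteinases and TGF-beta targets were also mostly or always lower where they changed. All 4 called mitochondrially encoded mRNAs were higher. Of 17030 genes tested, 1077 (6.32%) were higher and 1171 (6.88%) were lower at 48 h (edgeR, quasi-likelihood F test, Benjamini-Hochberg adjustment over all 17030 genes, threshold 0.05), 13.2% in all. Most calls were small, with a median absolute log2 fold change of 0.30 among those higher and 0.38 among those lower. Only 70 (0.411%) were at least 2-fold higher and 105 (0.617%) at least 2-fold lower. The 48 h and 24 h libraries did not overlap for 2145 of the 2248 called genes, and for 31.5% of all tested genes. The total of 2248 became 1349 without 24 h replicate 2, 1446 without 48 h replicate 2 and 1496 without 48 h replicate 1. The count of genes higher also became 679 without 24 h replicate 3. The median log2 fold change of all tested genes was 0.0036. Values are given as CPM, counts scaled to library size with TMM factors, which are not corrected for gene length, so levels are compared within a gene only, and per-library values are given in the order of replicates 1, 2 and 3.

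**Figure D1:**
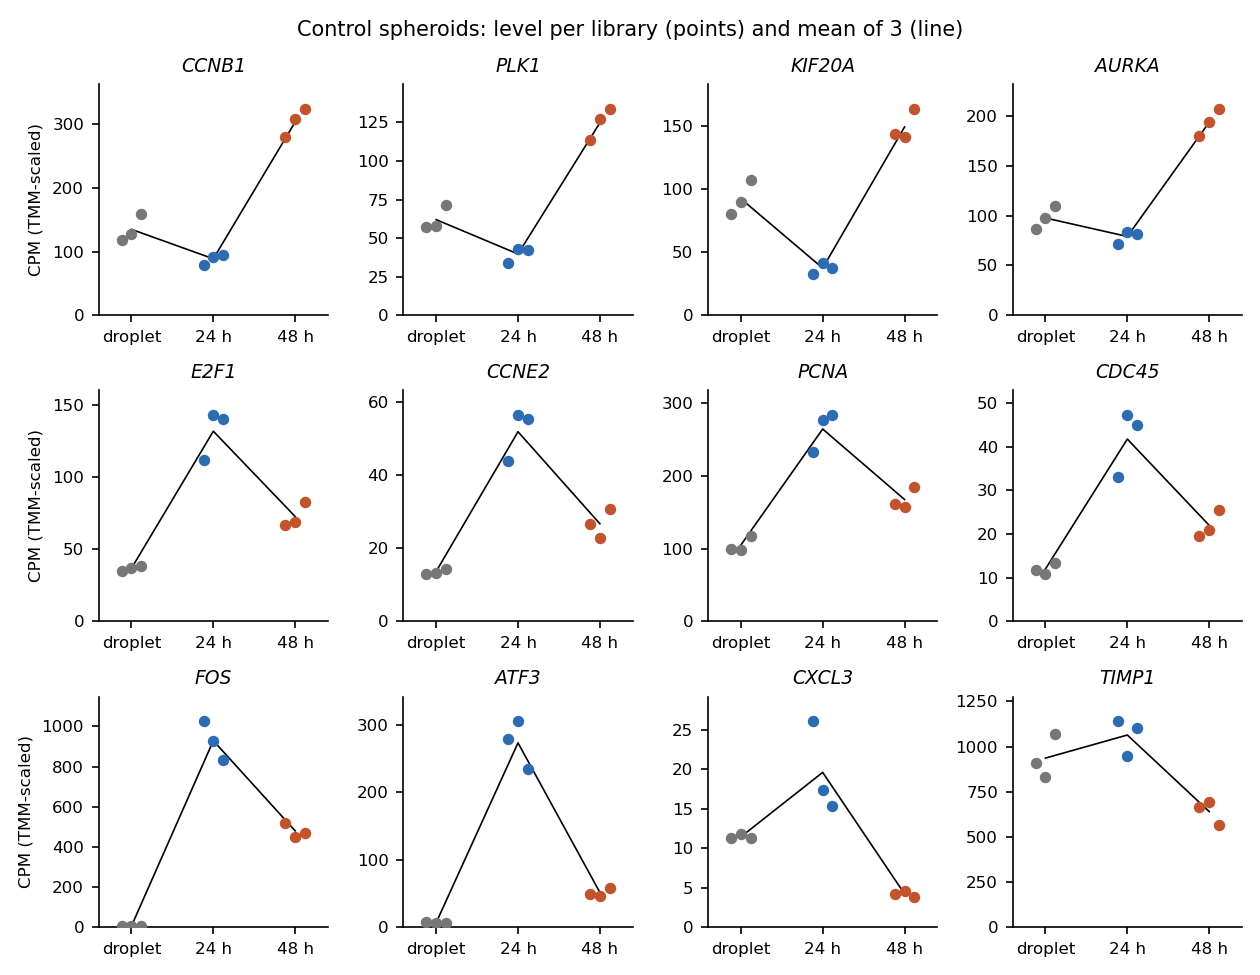
Level of 12 genes in CPM (y axis, linear, from 0) in the 3 control libraries each of droplets, 24 h and 48 h in collagen (x axis), with points for libraries and a line through the means of 3. The mitotic genes of the top row are highest at 48 h, the replication genes of the middle row and the early-response, chemokine and protease-inhibitor genes of the bottom row have their highest mean at 24 h.

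Mitosis genes made up the clearest rise. Of 155 tested members of the mitosis list, 74 were higher and 14 lower at 48 h (47.7% and 9.03%, against 6.32% and 6.88% of all tested genes), with a median log2 fold change of 0.31. The list supplied 20 of the 70 genes that were at least 2-fold higher. In every one of the 74 the 48 h libraries lay above the 24 h libraries, but groups also did not overlap for 1042 of all 1077 higher calls. Within the groups, 24 h replicate 1 was the lowest 24 h library for 71 of the 74 and 48 h replicate 3 the highest 48 h library for 69. The number of members higher was 58 without 24 h replicate 1 and 57 without 48 h replicate 3. In bulk RNA, more cells in a cell cycle phase and more RNA per cell cannot be told apart.

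Regulators of mitotic entry moved in both directions. Of 26 members 14 were higher and 6 lower. CCNB1 (GRCh38, chr5:69167010-69178245, plus strand), the cyclin that activates CDK1 for mitotic entry, had 280.2, 308 and 324 CPM at 48 h, against 79.7, 92.3 and 94.97 CPM at 24 h. The 48 h libraries stood clear of the 24 h libraries (log2 fold change 1.77, SE 0.154, adjusted p = 8.96e-06). PLK1, the polo-like kinase of centrosomes and kinetochores (chr16:23677656-23690367, plus strand), had 113, 127 and 134 CPM at 48 h, against 33.8, 43.3 and 42.3 CPM at 24 h (log2 fold change 1.65, SE 0.151, adjusted p = 9.79e-06). AURKA, a centrosomal kinase, had 179.9, 194 and 206 CPM at 48 h, against 71.9, 83.2 and 81.9 CPM at 24 h (log2 fold change 1.29, SE 0.117, adjusted p = 5.13e-06). Both kinases had every 48 h library above every 24 h library. CCNB2, a second B-type cyclin, changed by 1.43 (SE 0.156), CDC25C, the phosphatase that activates CDK1, by 0.99 (SE 0.204), and HMMR, a spindle-associated hyaluronan receptor, by 1.01 (SE 0.181). CDK1 itself overlapped between the groups, at 171, 189.7 and 215 CPM at 48 h, against 128, 187 and 192 CPM at 24 h (log2 fold change 0.18, SE 0.152, adjusted p = 0.493). The A-type cyclin gene CCNA2 was higher by 0.66 (SE 0.168), a call (adjusted p = 0.0212) that was lost without 24 h replicate 1 (0.0707), 48 h replicate 2 (0.0615) or 48 h replicate 3 (0.0718). The 6 members that fell included CDC25A, a phosphatase that acts mainly at S-phase entry, at -0.68 (SE 0.1004), and, picked here after their values were seen, the CDK1-inhibitory kinases WEE1 at -0.59 (SE 0.0621) and PKMYT1 at -0.64 (SE 0.123).

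The spindle machinery rose most widely. Of 39 tested mitotic kinesins and spindle proteins 27 were higher and 1 lower, with a median log2 fold change of 0.63. KIF20A, the kinesin of the central spindle (chr5:138178719-138187715, plus strand), had 143, 141 and 163 CPM at 48 h, against 33.1, 41.6 and 37.8 CPM at 24 h, the largest rise among named genes (log2 fold change 1.99, SE 0.164, adjusted p = 5.56e-06). NEK2, a centrosome-separating kinase, had 63.0, 71.0 and 73.6 CPM at 48 h, against 19.5, 24.8 and 23.9 CPM at 24 h (log2 fold change 1.60, SE 0.147, adjusted p = 5.71e-06). DLGAP5, which stabilises kinetochore fibres, had 201, 209.9 and 239.5 CPM at 48 h, against 66.3, 94.7 and 89.6 CPM at 24 h (log2 fold change 1.37, SE 0.177, adjusted p = 0.000256). In each of the 3 the lowest 48 h library was more than 2 times the highest 24 h library. PIF1, a DNA helicase that the list counts in this role although it is not a spindle protein, changed by 1.58 (SE 0.203). PIMREG, a mitotic regulator, changed by 1.26 (SE 0.121), and TROAP, a spindle-associated protein, by 1.13 (SE 0.154).

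Chromosome segregation genes rose in part. Of 8 chromosomal passenger and shugoshin genes 5 were higher and 0 lower, with CDCA8, the borealin gene, at 85.8 ± 5.54 CPM at 48 h and 45.1 ± 9.38 CPM at 24 h and SGO2, a protector of centromeric cohesion, at 79.9 ± 8.31 CPM at 48 h and 41.7 ± 6.25 CPM at 24 h (SD, n = 3 each), changes of 0.93 (SE 0.151) and 0.94 (SE 0.131). Of 25 spindle checkpoint and anaphase genes 10 were higher and 2 lower. CDC20, the activator of the anaphase-promoting complex (chr1:43358955-43363203, plus strand), had 205, 223 and 256 CPM at 48 h, against 77.8, 100.2 and 97.0 CPM at 24 h (log2 fold change 1.31, SE 0.124, adjusted p = 9.76e-06). PTTG1, the securin gene, had 116, 121 and 134 CPM at 48 h, against 49.5, 54.0 and 55.1 CPM at 24 h (log2 fold change 1.23, SE 0.135, adjusted p = 3.89e-05). Both had no 24 h library as high as any 48 h library. Kinetochore and centromere genes had 9 of 35 higher and 3 lower, with a median of only 0.010. CENPA, the centromeric histone, changed by 1.36 (SE 0.134), CENPE, a kinetochore motor, by 0.85 (SE 0.161), and CENPF by 0.80 (SE 0.142). Condensin and chromosome structure genes had 4 of 14 higher and 2 lower. KPNA2, an importin that regulates spindle factors, had 466, 503 and 539.7 CPM at 48 h, against 277, 319.8 and 319 CPM at 24 h (log2 fold change 0.72, SE 0.0742, adjusted p = 1.64e-06), with tight and separate groups. TOP2A, the topoisomerase that untangles sister chromatids, was higher by 0.52 (SE 0.153) with adjusted p = 0.0405. That call was lost without 24 h replicate 1 or 3 (0.133 and 0.0737) and without 48 h replicate 1, 2 or 3 (0.0655, 0.0846 and 0.138). The proliferation marker MKI67, counted in the same role, had 312, 333 and 349 CPM at 48 h, against 189, 255 and 273 CPM at 24 h and did not pass (adjusted p = 0.0548), although its groups did not overlap. Of 11 cytokinesis genes 7 were higher and 0 lower. SAPCD2 changed by 1.03 (SE 0.112), CEP55, the abscission scaffold of the midbody, by 0.76 (SE 0.115), and RACGAP1, a subunit of centralspindlin, by 0.58 (SE 0.122).

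Several of these genes lie across a gene of the other strand. KIF20A overlaps BRD8 and CDC23, CDC25C overlaps FAM53C, PIMREG overlaps PITPNM3, and PLK1, CCNB2 and SAPCD2 overlap unnamed transcripts. SGO2 overlaps KCTD18, RACGAP1 overlaps AQP6 and CENPF overlaps ABHD17AP3. Whether strand was used in counting is not given in the sources used here, so values of such overlapping genes, here and further on, are uncertain.

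**Figure D2:**
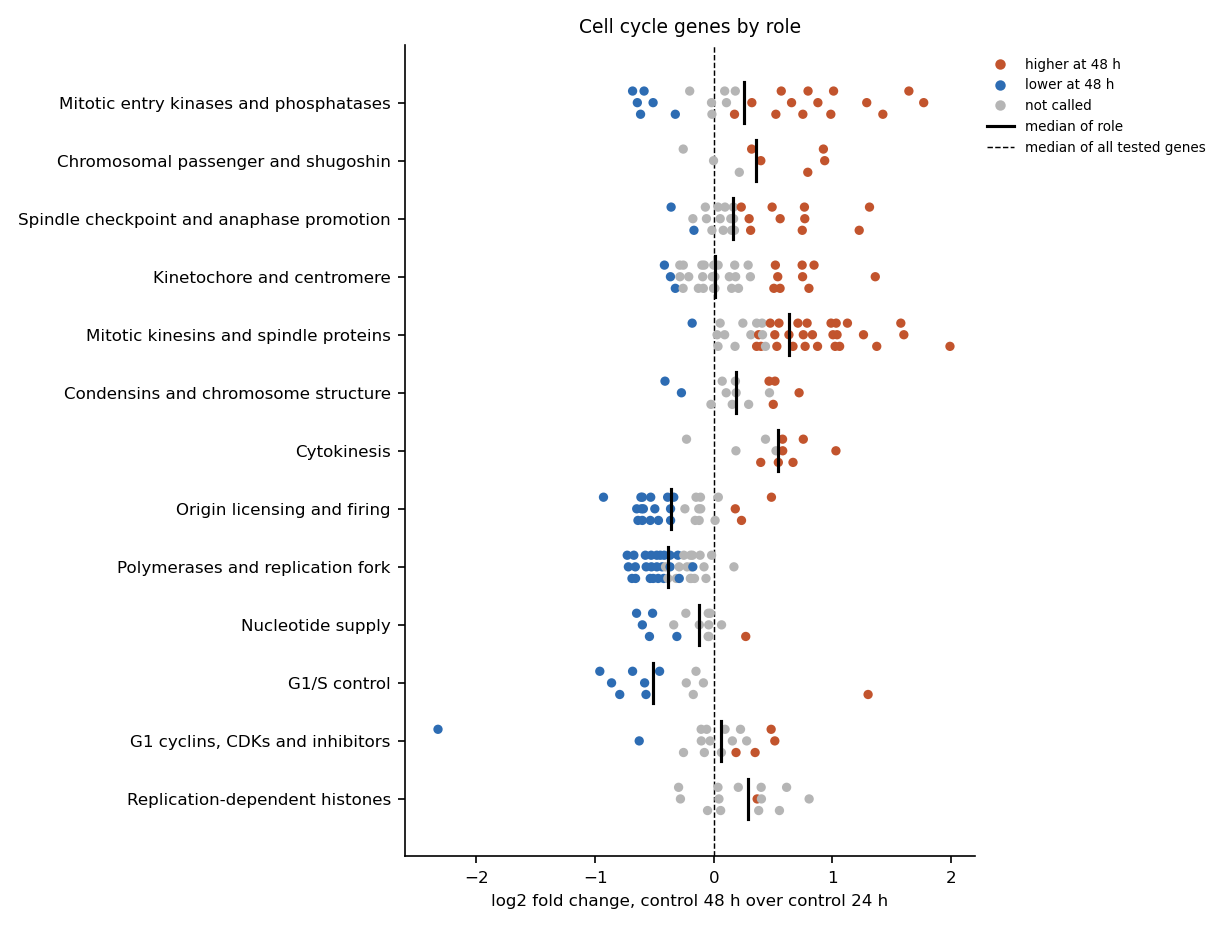
Log2 fold change of control 48 h over control 24 h (x axis) for every tested member of the cell cycle lists, by role (y axis), with orange points higher, blue points lower and grey points not called, a black bar at the median of each role and a dashed line at the median of all tested genes. Spindle and cytokinesis roles have medians of 0.63 and 0.54, while licensing, replication fork and G1/S roles have medians of -0.36, -0.39 and -0.51.

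Promoters of the mitotic genes are shown because many share the same pair of short elements. RefSeq promoter windows (GRCh38.p14, 250 bases before to 50 after a start) were found for 62 of the 74 mitosis genes that rose, as 74 windows. The CHR, searched as TTTGAA or TTCGAA on both strands, was in 51 of the 74 windows (68.9%, Wilson 95% interval 57.7 to 78.3%), in 35 of 86 windows of uncalled mitosis genes (40.7%) and in 2130 of 17169 windows of all tested genes (12.4%). The CHR together with a CCAAT box, the letters CCAAT on either strand, was in 58.1%, 20.9% and 4.92% of these windows. In the 250 bases before the start alone, the shares were 52.7%, 26.7% and 10.7% for the CHR and 45.9%, 15.1% and 3.95% for the pair. The interval treats windows as independent, although some belong to the same gene. The 4 stretches have the CHR and CCAAT box in capitals, on the coding strand of the gene, without annotated exons, and lie at chr1:43358861-43358950 (plus strand) for CDC20, chr10:93496476-93496534 (plus strand) for CEP55, chrX:70290026-70290089 (plus strand) for KIF4A, a chromosome-bound kinesin, and chr1:197146710-197146802 (minus strand) for ASPM, a spindle pole protein. KIF4A rose by 0.63 (SE 0.140) and ASPM by 1.06 (SE 0.181), and both were picked for their motifs after their values were seen.
CDC20: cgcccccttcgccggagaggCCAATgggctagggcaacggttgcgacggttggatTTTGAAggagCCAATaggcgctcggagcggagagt
CEP55: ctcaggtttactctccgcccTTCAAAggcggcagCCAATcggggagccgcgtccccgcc
KIF4A: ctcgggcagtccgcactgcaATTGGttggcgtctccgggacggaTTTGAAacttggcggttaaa
ASPM: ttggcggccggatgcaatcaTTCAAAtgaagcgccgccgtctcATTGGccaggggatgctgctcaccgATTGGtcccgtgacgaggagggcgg
In all 4 the letters TTTGAA or their complement TTCAAA stand close to CCAAT or its complement ATTGG. The match describes letters and does not show that a factor binds there.

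**Figure D3:**
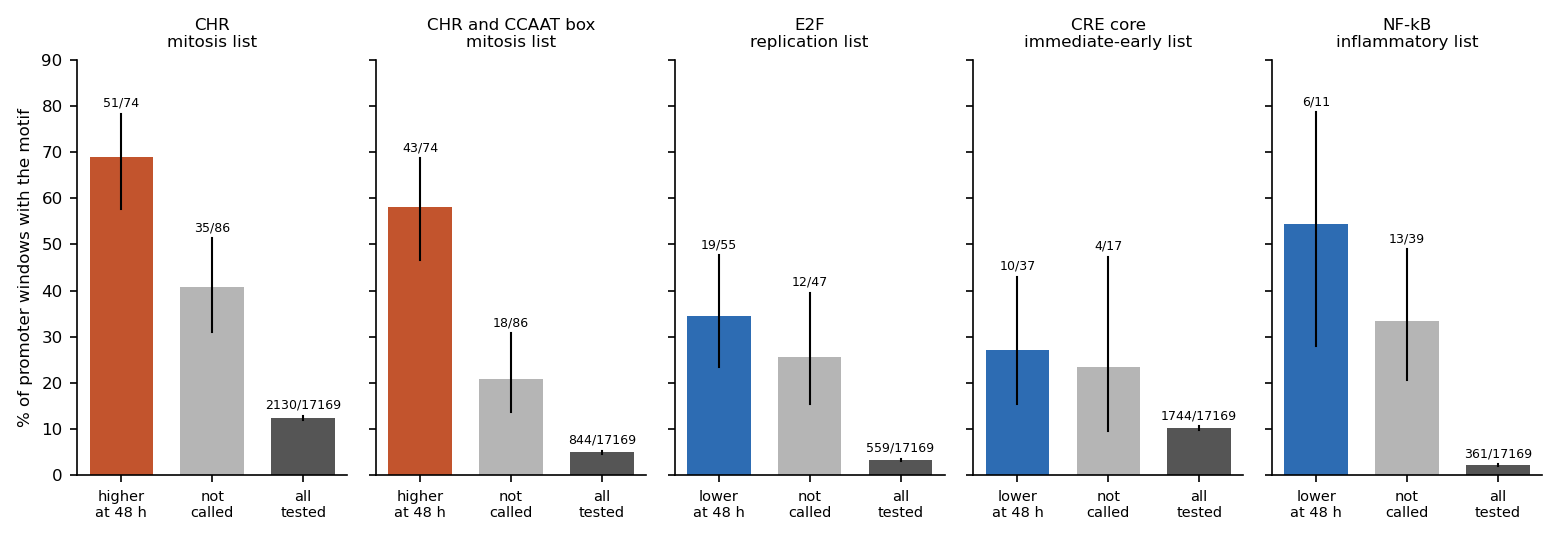
Share of promoter windows of 300 bases that hold a motif (y axis, percent, from 0) for list members called at 48 h, list members not called and all tested genes (x axis), with the Wilson 95% interval as a line and the number of windows above each bar. The CHR is in 68.9% of windows of mitosis genes that rose and 40.7% of those not called, and the intervals of called and uncalled members overlap in the other lists.

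DNA replication genes moved the other way. Of 96 members 52 were lower and 5 higher at 48 h (54.2% and 5.21%), with a median log2 fold change of -0.36. No member fell 2-fold. For all 52, 24 h replicate 1 was the lowest 24 h library, and for 51 of them 48 h replicate 3 was the highest 48 h library. The groups did not overlap for 44 of the 52, beside 1103 of all 1171 lower calls. The number lower was 68 without 24 h replicate 1, 64 without 48 h replicate 3 and 38 without 24 h replicate 3.

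Among genes of origin licensing and firing, 16 of 28 were lower and 3 higher. CDC45, a subunit of the replicative helicase (chr22:19479459-19520612, plus strand), had 19.5, 21.01 and 25.4 CPM at 48 h, against 33.1, 47.2 and 44.9 CPM at 24 h (log2 fold change -0.93, SE 0.150, adjusted p = 0.000694). CDC6, which loads the MCM helicase, had 87.6, 89.7 and 106 CPM at 48 h, against 118, 154 and 156 CPM at 24 h (log2 fold change -0.60, SE 0.0963, adjusted p = 0.000472). CDT1, its partner in loading, changed by -0.61 (SE 0.101), and MCM10, an initiation factor, by -0.65 (SE 0.133). The helicase subunit MCM2 had 73.0, 80.3 and 95.7 CPM at 48 h, against 97.9, 127 and 126 CPM at 24 h (log2 fold change -0.50, SE 0.108, adjusted p = 0.0061). In these 3 genes every 48 h library was below every 24 h library. Of 41 polymerase and fork genes 24 were lower and 0 higher. PCNA, the sliding clamp (chr20:5114953-5126626, minus strand), had 161, 157 and 184 CPM at 48 h, against 233, 276 and 283 CPM at 24 h (log2 fold change -0.66, SE 0.0810, adjusted p = 2e-05), with no overlap. POLE, the leading-strand polymerase, changed by -0.67 (SE 0.0962), LIG1, the ligase that joins Okazaki fragments, by -0.72 (SE 0.0980), and EXO1, an exonuclease of mismatch repair, by -0.73 (SE 0.123). Nucleotide supply genes had 5 of 15 lower and 1 higher, with RRM1, the large subunit of ribonucleotide reductase, at 182 ± 22.2 CPM at 48 h and 259.9 ± 37.8 CPM at 24 h and TYMS, thymidylate synthase, at 122 ± 16.2 CPM at 48 h and 191 ± 37.7 CPM at 24 h (SD, n = 3 each). Their log2 fold changes were -0.52 (SE 0.0963) and -0.65 (SE 0.124). The small subunit gene RRM2 overlapped between the groups, at 178, 184 and 232 CPM at 48 h, against 218, 326 and 321 CPM at 24 h (adjusted p = 0.0198), and its call was lost without 24 h replicate 2 or 3 (0.0865 and 0.0785) and without 48 h replicate 1 or 2 (0.0811 and 0.077).

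Control of S-phase entry had 7 of 12 members lower and 1 higher. E2F1, the activating transcription factor of this programme (chr20:33675683-33686404, minus strand), had 66.8, 68.6 and 82.4 CPM at 48 h, against 112, 143 and 140.4 CPM at 24 h (log2 fold change -0.86, SE 0.0940, adjusted p = 8.96e-06). CCNE2, a cyclin that activates CDK2, had 26.7, 22.8 and 30.6 CPM at 48 h, against 43.9, 56.3 and 55.3 CPM at 24 h (log2 fold change -0.96, SE 0.115, adjusted p = 1.92e-05). Both had all 48 h libraries below all 24 h libraries. E2F2 was a low gene at 5.16 ± 1.06 CPM at 48 h and 8.90 ± 1.10 CPM at 24 h and changed by -0.79 (SE 0.140). CDKN3, the only riser of the group, encodes a phosphatase of CDKs whose transcript peaks in mitosis, and had 59.6, 65.9 and 70.1 CPM at 48 h, against 21.3, 29.8 and 28.0 CPM at 24 h (log2 fold change 1.302, SE 0.141, adjusted p = 2.23e-05). Of the D cyclins and CDK inhibitors, CCND1 overlapped between the groups at 1026, 1078 and 1092 CPM at 48 h, against 970.3, 1036 and 1048 CPM at 24 h (log2 fold change 0.065, SE 0.0484, adjusted p = 0.422). CDKN1A, the p53-induced inhibitor p21, had 111, 107 and 106 CPM at 48 h, against 167, 172 and 161 CPM at 24 h (log2 fold change -0.63, SE 0.0604, adjusted p = 5.13e-07), whereas CDKN2C (p18) and CDKN2D (p19) were higher by 0.52 (SE 0.0909) and 0.35 (SE 0.0734). In all, 4 of 17 tested members of that list were higher and 2 lower. Among 24 p53 targets, counting CDKN1A again, 2 were higher and 4 lower (8.33% and 16.7%, against 6.32% and 6.88% of all tested genes). Both lists had the same lowest log2 fold change, -2.32, deeper than that of CDKN1A, and 1 member each at least 2-fold lower. Their counts are therefore not independent. Of 27 replication-dependent histone genes, 14 were tested and 1, H2AC6, was higher, by 0.37 with SE 0.0874. In dividing cells these mRNAs mostly lack a polyA tail, and the libraries were polyA-selected. On the opposite strand, CCNE2 overlaps INTS8 and NDUFAF6, CDKN1A overlaps DINOL and MCM2 overlaps TPRA1.

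The E2F sequence was counted in the same RefSeq windows, as TTTCCCGC or TTTGGCGC on both strands. It was in 19 of 55 windows of replication genes that fell (34.5%), 12 of 47 windows of uncalled replication genes (25.5%) and 559 of 17169 windows of all tested genes (3.26%). Stretches of 3 genes that fell show the element in capitals, on the coding strand and without annotated exons, at chr1:23531248-23531295 (minus strand) for E2F2, chr3:48188434-48188481 (minus strand) for CDC25A and chr20:5126654-5126701 (minus strand) for PCNA.
E2F2: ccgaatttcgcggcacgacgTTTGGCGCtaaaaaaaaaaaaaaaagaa
CDC25A: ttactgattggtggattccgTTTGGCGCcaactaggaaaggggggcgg
PCNA: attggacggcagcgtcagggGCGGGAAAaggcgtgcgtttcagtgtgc
E2F2 and CDC25A hold the letters TTTGGCGC on the coding strand, and PCNA holds GCGGGAAA, the complement of TTTCCCGC.

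Immediate-early genes included ATF3, the deepest fall among the named genes. Of 60 members 31 were lower and 6 higher (51.7% and 10.0%), and 13 were at least 2-fold lower. The median log2 fold change was -0.38. In all 31 the 48 h libraries lay below the 24 h libraries, but groups also did not overlap for 1103 of all 1171 lower calls. For 21 of the 31, 24 h replicate 1 was the highest 24 h library.

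AP-1 subunit genes had 6 of 12 members lower and 1 higher. ATF3, a stress-induced member (chr1:212565334-212620777, plus strand), had 49.8, 46.5 and 59.1 CPM at 48 h, against 279.6, 306 and 235 CPM at 24 h (log2 fold change -2.40, SE 0.119, adjusted p = 1.48e-08). FOSB (chr19:45467995-45475179, plus strand) had 143, 110.0 and 129.9 CPM at 48 h, against 472, 494 and 378 CPM at 24 h (log2 fold change -1.81, SE 0.0996, adjusted p = 1.48e-08). FOS (chr14:75278774-75282230, plus strand) had 521, 451 and 469.5 CPM at 48 h, against 1026, 926 and 836 CPM at 24 h (log2 fold change -0.95, SE 0.0987, adjusted p = 8.69e-06). For all 3 genes the highest 48 h library was below the lowest 24 h library. JUNB, JUN and JUND, the partners of FOS proteins, were also lower, at -1.03 (SE 0.107), -0.48 (SE 0.0612) and -0.48 (SE 0.0930). FOSB overlaps ERCC1 and JUNB overlaps HOOK2 on the opposite strand.

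Of 31 zinc finger, nuclear receptor and other early factors 19 were lower and 2 higher, with a median of -0.69. EGR1 (chr5:138465490-138469315, plus strand) had 150.2, 147 and 136 CPM at 48 h, against 476, 419 and 422 CPM at 24 h (log2 fold change -1.60, SE 0.116, adjusted p = 5.14e-07). NR4A2, an orphan nuclear receptor, had 29.5, 24.0 and 24.0 CPM at 48 h, against 109.8, 99.7 and 76.2 CPM at 24 h (log2 fold change -1.88, SE 0.151, adjusted p = 2.48e-06). ZFP36, which destabilises inflammatory mRNAs, had 83.6, 68.4 and 67.1 CPM at 48 h, against 224, 197 and 154 CPM at 24 h (log2 fold change -1.39, SE 0.128, adjusted p = 7.84e-06). All 3 separated the groups by library. NR4A1 changed by -1.67 (SE 0.256) and EGR3, a low gene at 2.58 ± 0.355 CPM at 48 h and 7.92 ± 1.93 CPM at 24 h, by -1.61 (SE 0.157). MYC went against the group with a small rise, at 125, 123 and 133 CPM at 48 h, against 109, 113 and 112 CPM at 24 h (log2 fold change 0.19, SE 0.0491, adjusted p = 0.0128), a call lost without 48 h replicate 3 (0.0787).

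Feedback regulators of MAP kinase signalling had 6 of 18 members lower and 3 higher. DUSP1, the nuclear MAP kinase phosphatase, had 231, 223 and 236 CPM at 48 h, against 504, 507 and 394 CPM at 24 h (log2 fold change -1.02, SE 0.106, adjusted p = 1.18e-05). DUSP5 and DUSP6, phosphatases of ERK, changed by -0.57 (SE 0.0696) and -0.32 (SE 0.0645). SPRY1, a Sprouty inhibitor of receptor kinase signalling, was higher, at 70.2, 58.0 and 53.5 CPM at 48 h, against 45.7, 40.5 and 34.9 CPM at 24 h (log2 fold change 0.59, SE 0.0966, adjusted p = 0.00047), and the related SPRED2 was at 0.26 (SE 0.0581), a call lost without 48 h replicate 1 (0.0531).

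The CRE core, TGACGT on either strand, to which CREB and ATF factors bind and which the full CRE contains, was in 10 of 37 windows of immediate-early genes that fell (27.0%), 4 of 17 windows of those not called (23.5%) and 10.2% of windows of all tested genes. Stretches of EGR1, FOSB and DUSP1 lie at chr5:138465354-138465437 (plus strand), chr19:45467916-45467961 (plus strand) and chr5:172771293-172771387 (minus strand). All 3 genes fell at least 2-fold and were picked because a stretch outside annotated exons holds the CRE core. They therefore do not show how common the element is among the genes that fell most. Capitals mark the CRE core and, in EGR1, also a pair of CArG boxes, the element of serum response factor.
EGR1: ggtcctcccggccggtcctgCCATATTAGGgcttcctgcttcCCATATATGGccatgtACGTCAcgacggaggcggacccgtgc
FOSB: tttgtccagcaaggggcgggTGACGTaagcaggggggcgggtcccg
DUSP1: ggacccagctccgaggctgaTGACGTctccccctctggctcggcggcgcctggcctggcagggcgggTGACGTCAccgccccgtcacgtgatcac
The second CRE of the DUSP1 stretch is the full palindrome TGACGTCA.

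Inflammatory genes fell in smaller number. Of 47 tested members 12 were lower and 2 higher (25.5% and 4.26%), with a median log2 fold change of -0.39, and 10 were at least 2-fold lower. By DESeq2 22 members were lower. In 11 of the 12 that fell, 24 h replicate 1 was the highest 24 h library.

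The ELR chemokines, which attract neutrophils through CXCR2, had 2 of 5 tested members lower and 0 higher. CXCL3 (chr4:74036589-74038807, minus strand) had 4.27, 4.64 and 3.80 CPM at 48 h, against 26.1, 17.4 and 15.3 CPM at 24 h (log2 fold change -2.20, SE 0.225, adjusted p = 1.21e-05). CXCL2 (chr4:74097035-74099293, minus strand) had 17.6, 17.9 and 14.1 CPM at 48 h, against 94.7, 54.5 and 45.2 CPM at 24 h (log2 fold change -1.96, SE 0.278, adjusted p = 0.000574). CXCL8 had 186, 200.1 and 129 CPM at 48 h, against 646, 234 and 254 CPM at 24 h, groups that did not overlap, but 24 h replicate 1 stood well above the other 24 h libraries and the test was not passed (log2 fold change -1.14, SE 0.398, adjusted p = 0.0833). CXCL1 showed the same order of libraries, at 38.8, 41.1 and 27.7 CPM at 48 h, against 141, 44.1 and 49.9 CPM at 24 h (log2 fold change -1.12, SE 0.411, adjusted p = 0.0973). Without 24 h replicate 1 the log2 fold changes were -0.51 for CXCL8 and -0.39 for CXCL1. CXCL1, CXCL2 and CXCL3 are close paralogs, so reads could be split among them.

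Other cytokines had 8 of 21 members lower and 1 higher. IL6 (chr7:22725884-22732002, plus strand) had 27.6, 29.1 and 34.4 CPM at 48 h, against 111, 71.1 and 60.3 CPM at 24 h (log2 fold change -1.41, SE 0.233, adjusted p = 0.0017). PTGS2, the inducible cyclooxygenase grouped with them, had 56.7, 60.6 and 45.3 CPM at 48 h, against 228, 131 and 142 CPM at 24 h (log2 fold change -1.62, SE 0.296, adjusted p = 0.00345). Neither gene overlapped between the groups. CX3CL1, a membrane-bound chemokine, changed by -1.02 (SE 0.219). IL1B was at 12.5, 15.4 and 8.81 CPM at 48 h, against 51.8, 19.4 and 23.5 CPM at 24 h, and its call (adjusted p = 0.0412) was lost without 24 h replicate 1 (0.153, log2 fold change -0.81) and without 48 h replicate 1, 2 or 3 (0.107, 0.068 and 0.134). NF-kB components and feedback genes had 2 of 21 lower and 1 higher (9.52% and 4.76%, against 6.88% and 6.32% of all tested genes). The other 18 were not called, and the median of the role was -0.10. The lower ones were NFKBIZ, an atypical IkB protein, at -1.15 (SE 0.174), and TNFAIP3, the feedback inhibitor A20, at -1.10 (SE 0.234). NFKBIA, the main IkB, had 111, 114 and 85.4 CPM at 48 h, against 206, 149 and 127 CPM at 24 h and did not pass (adjusted p = 0.0608). IL6 overlaps STEAP1B and an antisense gene on the opposite strand.

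The NF-kB site, searched on both strands as GGG and TTTCC with any 2 bases between them, was in 6 of 11 windows of inflammatory genes that fell (54.5%, Wilson 95% interval 28.0 to 78.7%), 13 of 39 windows of those not called (33.3%) and 2.1% of windows of all tested genes. Stretches of 2 named genes that fell and hold it outside annotated exons lie at chr7:22727107-22727146 (plus strand) for IL6 and chr3:101827747-101827796 (plus strand) for NFKBIZ, with the site in capitals. The IL6 stretch lies before the RefSeq start but inside the GENCODE span of the gene, in which a longer transcript begins upstream.
IL6: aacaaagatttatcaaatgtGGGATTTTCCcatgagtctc
NFKBIZ: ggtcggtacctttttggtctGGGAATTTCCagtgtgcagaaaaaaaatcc

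**Figure D4:**
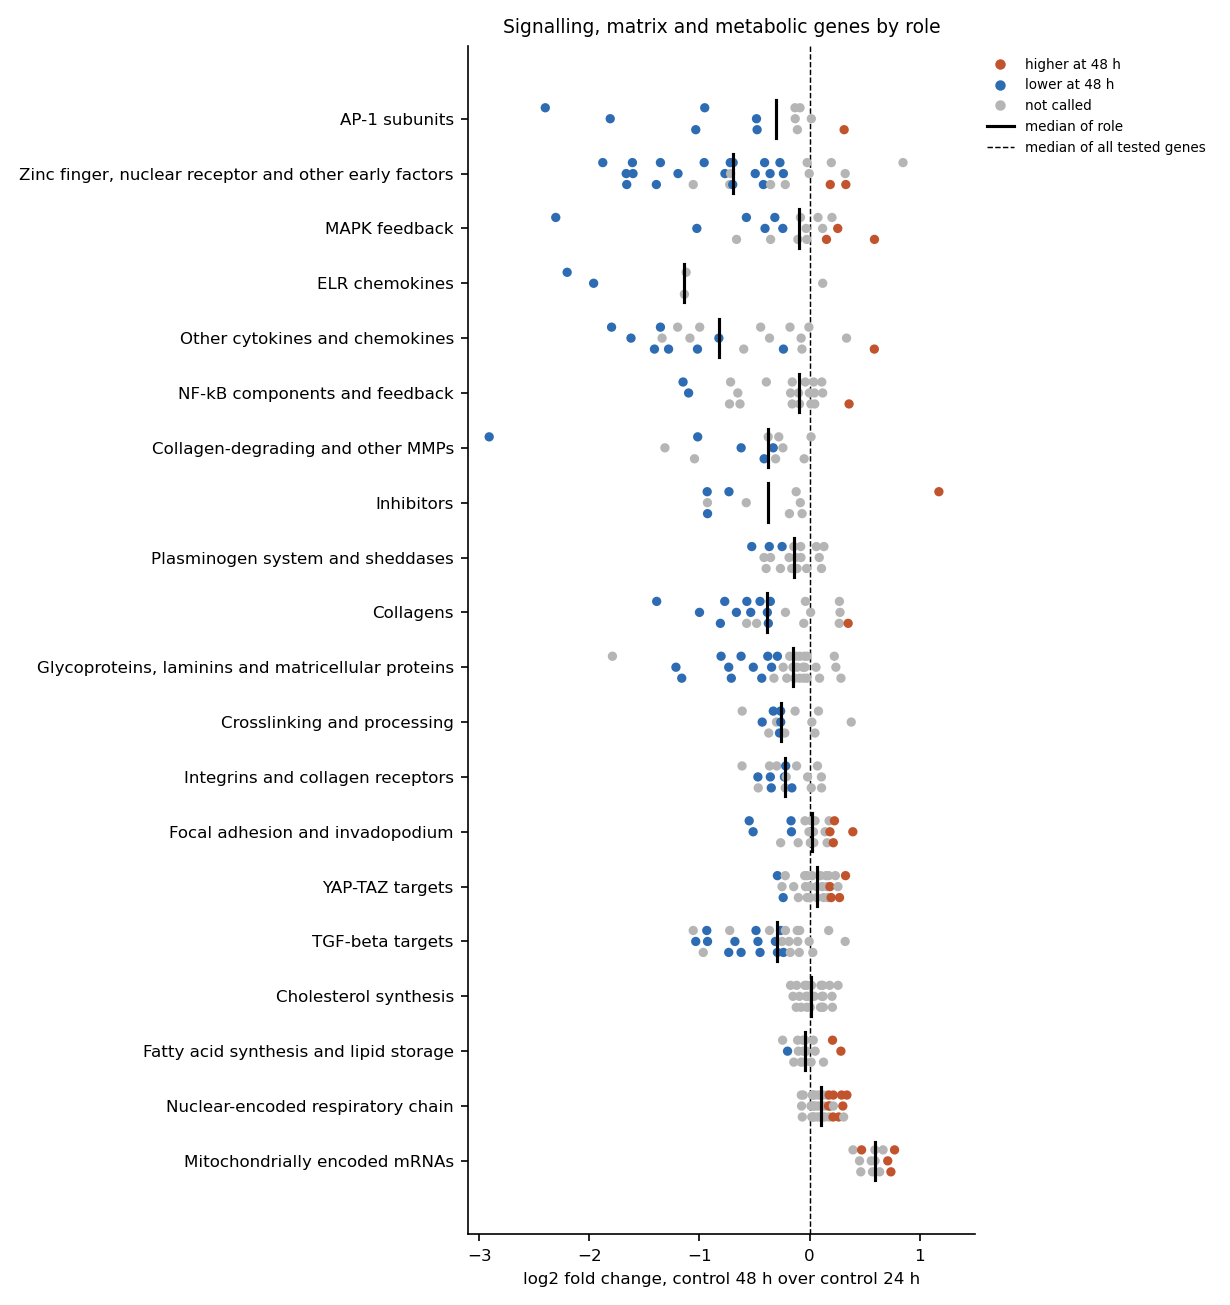
Log2 fold change of control 48 h over control 24 h (x axis) for every tested member of the signalling, matrix, adhesion and metabolic roles shown (y axis), with orange points higher, blue points lower and grey points not called, a black bar at the median of each role and a dashed line at the median of all tested genes. The medians of early factors, ELR chemokines, collagens and TGF-beta targets lie left of the line, YAP-TAZ targets and cholesterol genes lie around it, and all 13 mitochondrially encoded mRNAs lie right of it.

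Matrix-degrading proteases were lower where they changed. Of 13 tested metalloproteinase genes 5 were lower and 0 higher (38.5% lower, against 6.88% of all tested genes), and 2 were at least 2-fold lower. MMP14 (chr14:22836557-22849027, plus strand), the membrane-anchored collagenase that the study targets, had 1550.1, 1506 and 1284 CPM at 48 h, against 1976, 1767 and 1713 CPM at 24 h (log2 fold change -0.33, SE 0.0807, adjusted p = 0.00918). MMP1, the interstitial collagenase, had 252, 314 and 244 CPM at 48 h, against 424, 376 and 447 CPM at 24 h (log2 fold change -0.62, SE 0.181, adjusted p = 0.0394). Its groups did not overlap, but the call was lost without 24 h replicate 1, 2 or 3 (0.0905, 0.0627 and 0.115) and without 48 h replicate 1 or 3 (0.125 and 0.127). MMP15 changed by -0.41 (SE 0.101), a call lost without 48 h replicate 3 (0.0549). MMP13 was also called lower, but its call was lost whichever library was left out (adjusted p 0.0629 to 0.15). MMP2, MMP3, MMP9 and MMP10 were all under 2 CPM and did not pass. Protease inhibitors had 3 of 10 lower and 1 higher (30.0% and 10.0%, against 6.88% and 6.32% of all tested genes). TIMP1, a secreted metalloproteinase inhibitor, had 663, 694 and 564 CPM at 48 h, against 1140.1, 950.3 and 1101 CPM at 24 h (log2 fold change -0.73, SE 0.108, adjusted p = 0.000325). TIMP4 rose at a low level, with 6.07, 5.80 and 4.06 CPM at 48 h, against 2.09, 2.698 and 2.27 CPM at 24 h (log2 fold change 1.18, SE 0.198, adjusted p = 0.000362). In both inhibitors the groups stood apart. TIMP2 and TIMP3 did not pass, at -0.12 and -0.084. In the plasminogen system, the receptor gene PLAUR had 148, 143 and 142 CPM at 48 h, against 194, 181 and 184 CPM at 24 h (log2 fold change -0.37, SE 0.0732, adjusted p = 0.00197), whereas its ligand PLAU overlapped between the groups (log2 fold change 0.11, SE 0.0634, adjusted p = 0.286). TIMP1 overlaps SYN1, TIMP4 overlaps SYN2 and MMP1 overlaps WTAPP1, each on the opposite strand.

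Matrix genes fell in number but modestly. Of 68 tested members 27 were lower and 1 higher (39.7% and 1.47%), with a median of -0.25. Collagen genes had 11 of 21 lower and 1 higher. COL7A1, the anchoring fibril collagen (chr3:48564073-48595267, minus strand), had 40.5, 44.8 and 46.8 CPM at 48 h, against 125, 106 and 115 CPM at 24 h (log2 fold change -1.39, SE 0.115, adjusted p = 1.64e-06). COL6A1 and COL6A2, chains of the beaded-filament type VI collagen, changed by -0.57 (SE 0.0954) and -0.77 (SE 0.0771). COL1A2, a type I collagen chain, was low and fell further, at 3.07 ± 0.500 CPM at 48 h and 6.12 ± 0.731 CPM at 24 h (SD, n = 3 each; adjusted p = 0.00441). Glycoproteins, laminins and matricellular genes had 11 of 33 lower and 0 higher. FN1, fibronectin, had 1512, 1504 and 1449.7 CPM at 48 h, against 2596, 2231 and 2479.7 CPM at 24 h (log2 fold change -0.71, SE 0.127, adjusted p = 0.00192). FN1 and COL7A1 separated the groups in every library. THBS1 and TNC overlapped between the groups, at -0.32 and 0.29. Of 14 genes of crosslinking and processing 5 were lower and 0 higher, among them BMP1, the procollagen C-proteinase, at -0.43 (SE 0.0549) and SERPINH1, the collagen chaperone HSP47, at -0.33 (SE 0.0613). The lysyl oxidase gene LOX, which overlaps SRFBP1, had 82.5, 83.2 and 75.5 CPM at 48 h, against 117, 101 and 94.1 CPM at 24 h and did not pass (adjusted p = 0.192).

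Of 29 tested TGF-beta targets 13 were lower and 0 higher, with a median of -0.29. SMAD7, the inhibitory SMAD, had 12.9, 12.99 and 13.7 CPM at 48 h, against 27.0, 23.9 and 24.8 CPM at 24 h (log2 fold change -0.93, SE 0.0750, adjusted p = 3.81e-08). TGFBI, a secreted adhesion protein, had 74.2, 82.2 and 76.8 CPM at 48 h, against 123, 123 and 142 CPM at 24 h (log2 fold change -0.73, SE 0.126, adjusted p = 0.00148), and the activin antagonist gene FSTL3 changed by -0.62 (SE 0.0888). JUNB is counted here again, so the list is not independent of the early genes. Other genes also recur across lists, among them CCN2 (TGF-beta and YAP-TAZ targets), ATF3 (early genes and ATF4 targets) and CDC25A (mitosis and replication). Receptors for the matrix had 6 of 18 members lower and 0 higher. MRC2, an endocytic collagen receptor, changed by -0.47 (SE 0.0822), ITGAV by -0.35 (SE 0.0766) and ITGA3 by -0.23 (SE 0.0477), while the collagen-binding integrin gene ITGA2 overlapped (613, 627 and 495 CPM at 48 h, against 789, 601 and 632 CPM at 24 h; adjusted p = 0.323). Focal adhesion genes had 4 of 20 higher and 4 lower, with CAV1, caveolin, higher at 521 ± 17.1 CPM at 48 h and 396 ± 12.6 CPM at 24 h (log2 fold change 0.39, SE 0.0659, adjusted p = 0.000341) and NEDD9, a scaffold of adhesion signalling, lower, at -0.51 (SE 0.0706).

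Targets of YAP and TAZ, the coactivators that respond to stiffness and spreading, moved little. Of 28 members 4 were higher and 2 lower, shares of 14.3% and 7.14% against 6.32% and 6.88% of all tested genes, with a median of 0.065. CCN1 overlapped between the groups, at 1476, 1598 and 1897 CPM at 48 h, against 1604, 1671 and 1769 CPM at 24 h (log2 fold change -0.021, SE 0.109, adjusted p = 0.93), as did ANKRD1 (log2 fold change 0.26, SE 0.102, adjusted p = 0.112). CCN2 fell, at -0.29 (SE 0.0776, adjusted p = 0.0157), a call lost without 24 h replicate 3 (0.0789) or 48 h replicate 1 or 2 (0.0801 and 0.0769). MRTF-SRF targets, the actin-regulated genes, had 4 of 26 higher and 2 lower, with TAGLN at -1.25 (SE 0.147) and the cytoplasmic actin gene ACTG1 at 0.20 (SE 0.0476). Of 12 tested mesenchymal transition genes 2 were higher and 1 lower (16.7% and 8.33%), and of 26 tested epithelial genes 2 were higher and 1 lower (7.69% and 3.85%). The mesenchymal gene that fell was SNAI1, a repressor of E-cadherin and a low gene, at 0.822, 0.752 and 1.04 CPM at 48 h, against 2.67, 2.07 and 2.302 CPM at 24 h (log2 fold change -1.43, SE 0.223, adjusted p = 0.000163). SNAI2 was higher, a call lost whichever library was left out. Among epithelial genes KRT80 rose to 147, 142 and 151 CPM at 48 h, against 98.5, 97.1 and 103 CPM at 24 h (log2 fold change 0.56, SE 0.0705, adjusted p = 1.41e-05). VIM overlapped (3419, 3291 and 3461 CPM at 48 h, against 3119.6, 3251 and 3306 CPM at 24 h).

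Mitochondrially encoded mRNAs all had positive log2 fold changes, 0.39 to 0.77, with 4 of 13 higher and a median of 0.59. Their share of all counts was 3.51, 3.15 and 2.59% at 48 h, against 1.93, 2.24 and 2.19% at 24 h, which is 3.08 ± 0.462% and 2.12 ± 0.164% (SD, n = 3 each; exact two-sided permutation test, p = 0.1, the smallest p that 3 against 3 allows). The groups did not overlap. MT-ND4L, a subunit of complex I, had 430.1, 393 and 343 CPM at 48 h, against 198, 250.5 and 234 CPM at 24 h (log2 fold change 0.77, SE 0.170, adjusted p = 0.00939). The other 3 calls, of MT-CYB, MT-ND4 and MT-ND3, were lost when any library but 48 h replicate 3 was left out. Without 48 h replicate 1, the library with the highest share, their adjusted p values were 0.127, 0.107 and 0.121. Nuclear-encoded respiratory chain genes had 9 of 37 higher and 0 lower, with a small median of 0.10, among them UQCRFS1, the Rieske protein of complex III, at 112, 117 and 115 CPM at 48 h, against 93.0, 90.5 and 95.7 CPM at 24 h (log2 fold change 0.30, SE 0.0586, adjusted p = 0.00136). The part of RNA quality in this rise was not tested.

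Some of the larger changes among called genes with at least 5 CPM in the higher group and separate groups were outside every list. TMEM71, a transmembrane protein gene, had 15.1, 15.95 and 15.5 CPM at 48 h, against 5.17, 3.79 and 3.78 CPM at 24 h (log2 fold change 1.88, SE 0.116, adjusted p = 1.89e-09). GAS2L3, a cytoskeletal linker that acts in cytokinesis, had 41.8, 43.6 and 50.2 CPM at 48 h, against 12.3, 14.5 and 16.6 CPM at 24 h (log2 fold change 1.64, SE 0.174, adjusted p = 2.66e-05). ANXA10, an annexin, had 11.5, 10.1 and 8.16 CPM at 48 h, against 4.84, 2.85 and 3.19 CPM at 24 h (log2 fold change 1.46, SE 0.175, adjusted p = 1.08e-05). In all 3 every 48 h library was above every 24 h library. Among falls, TCIM had 4.66, 2.13 and 2.94 CPM at 48 h, against 13.4, 6.65 and 6.60 CPM at 24 h (log2 fold change -1.43, SE 0.309, adjusted p = 0.00774). A2M, the broad protease inhibitor alpha-2-macroglobulin, had 12.7, 17.6 and 8.202 CPM at 48 h, against 28.9, 45.8 and 35.2 CPM at 24 h (log2 fold change -1.51, SE 0.427, adjusted p = 0.0354), a call lost without 24 h replicate 2 or 3 (0.121 and 0.0745) or 48 h replicate 1 or 3 (0.102 and 0.119). MCL1, an anti-apoptotic BCL2 relative, is a member of the apoptosis list and fell in all 3 later libraries, at 709, 641 and 731 CPM at 48 h, against 1123, 1128 and 1072 CPM at 24 h (log2 fold change -0.67, SE 0.0618, adjusted p = 2.33e-07).

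The second day was set beside the first, the change of control spheroids between droplets and 24 h. The 2 comparisons share the 24 h libraries, and droplets were not digested, so their values are given side by side only. On the first day 27.8% of tested genes were higher and 28.7% lower. Of the 96 replication genes 92 were higher and 0 lower on the first day, with a median of 1.21, against 5 higher and 52 lower on the second. E2F1 averaged 36.7 ± 1.67 CPM in droplets, 132 ± 17.2 CPM at 24 h and 72.6 ± 8.55 CPM at 48 h (SD, n = 3 each), a first-day log2 fold change of 1.84 and a second-day one of -0.86. FOS averaged 6.46 ± 0.996, 929 ± 95.3 and 480.2 ± 36.2 CPM at these times, with changes of 7.18 and -0.95, so the 48 h level remained far above that of droplets. ATF3 averaged 6.81 ± 0.872, 274 ± 35.5 and 51.8 ± 6.51 CPM, with changes of 5.34 and -2.40. Of 155 mitosis genes 89 were higher and 13 lower on the first day, but not all rose on both days. KIF20A averaged 92.5 ± 13.6, 37.5 ± 4.29 and 149 ± 12.2 CPM, with -1.304 and then 1.99, while CDC20 had 0.34 and then 1.31. CXCL3 averaged 11.4 ± 0.287, 19.6 ± 5.70 and 4.23 ± 0.419 CPM, and its 48 h level lay under that of droplets. YAP-TAZ targets had 22 of 28 higher and 3 lower on the first day, with CCN1 at 3.46. Ribosomal protein genes had 69 of 74 higher and 1 lower on the first day and 1 higher and 0 lower on the second, and interferon-stimulated genes had 0 higher and 41 of 43 lower on the first day and 6 higher and 3 lower on the second.

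The second day of control spheroids was then compared with the second day of targeted spheroids, which share no library. In targeted spheroids 353 genes (2.07%) were higher and 295 (1.73%) lower at 48 h than at 24 h. The difference between the 2 second days was itself tested, as the control change minus the targeted change, and 0 of 17030 genes passed by edgeR, with 1107 (6.5%) at an unadjusted p under 0.05 and a smallest adjusted p of 0.177. Limma-voom also called 0 and DESeq2 called 10. Without 24 h control replicate 1, 2 genes passed, WDR62 and TMEM71. Fewer calls in targeted spheroids do not by themselves show that the second day differed there. Nor do 0 calls with 3 libraries a group show that the second days were alike. The unadjusted p of the difference (edgeR) was under 0.05 for 22 of 155 mitosis genes and 14 of 96 replication genes. It was so for 14 of 60 immediate-early and 12 of 47 inflammatory genes, and for 125 of the 1089 tested members of all lists, beside 6.5% of all tested genes.

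**Figure D5:**
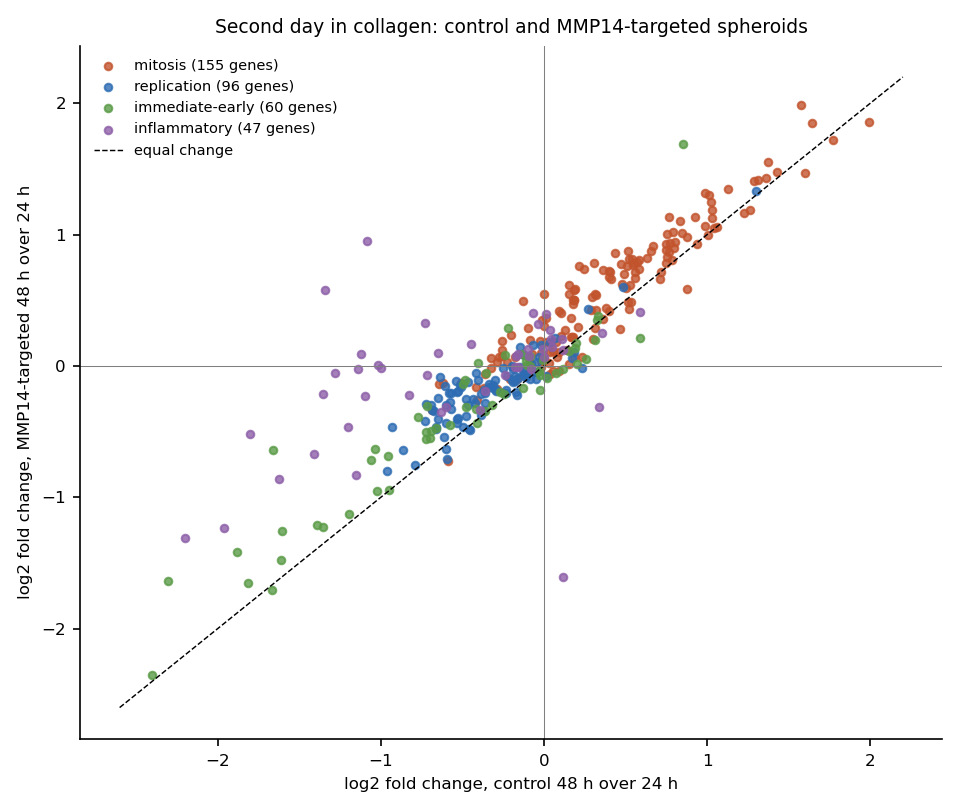
Log2 fold change of 48 h over 24 h in control spheroids (x axis) and in MMP14-targeted spheroids (y axis) for the tested members of 4 gene lists, with a dashed line where the changes are equal. ATF3 lies near the line at the lower left, at -2.40 in control and -2.35 in targeted spheroids, and KIF20A is at 1.99 and 1.86.

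Mitosis genes had 74 of 155 higher in control spheroids, with a median of 0.31, and 88 higher in targeted spheroids, with a median of 0.53. Replication genes had 52 of 96 lower in control spheroids and 14 lower in targeted spheroids, with medians of -0.36 and -0.18. CCNB1 had 207, 169 and 213 CPM in 48 h targeted libraries, against 56.3, 58.3 and 63.9 CPM in 24 h targeted libraries, a change of 1.72 (SE 0.157) beside 1.77 in control. E2F1 changed by -0.86 in control and -0.64 in targeted spheroids, and ATF3 by -2.40 and -2.35. Across the 155 mitosis genes the changes of the 2 genotypes had a Pearson r of 0.943 and a Spearman rho of 0.934, and across the 47 inflammatory genes an r of 0.457 and a rho of 0.499. Over all 17030 tested genes these correlations were 0.272 and 0.44. These describe genes of the same libraries, which are not independent replicates. CXCL8, at -1.14 in control, was at -0.020 in targeted spheroids, and IL6 was at -1.41 and -0.67. In neither gene did the difference pass (adjusted p = 0.786 and 0.763).

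Of the 10 genes that DESeq2 called, 4 are described here with their levels or changes. TMEM71 changed by 1.88 in control and 1.04 in targeted spheroids, a difference of 0.84 (SE 0.165, adjusted p = 0.177 by edgeR, and 0.0189 by DESeq2). COL6A2 fell in control, with 33.9, 32.2 and 28.5 CPM at 48 h, against 54.5, 54.8 and 52.2 CPM at 24 h, and had 164, 147 and 146 CPM in 48 h targeted libraries, against 192, 183 and 159 CPM in 24 h targeted libraries. Its difference was -0.55 (SE 0.104, adjusted p = 0.177 by edgeR, and 0.0174 by DESeq2). CDKN1A differed by -0.42 (SE 0.0857; adjusted p = 0.177 and 0.0231 by the same tests). EVI2B, which overlaps NF1, differed by 0.79 (SE 0.159; 0.177 and 0.0231). The others were WDR62, ATP8B1, FTL, ADGRF1 and 2 genes without a symbol, with adjusted p-values by edgeR between 0.177 and 0.634. MMP14 itself was at -0.33 (SE 0.0807) in control and -0.050 (SE 0.0832) in targeted spheroids, where the gene is the target, with an adjusted p of 0.748 for the difference.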

How the data were processed

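Poly(A)-selected RNA was sequenced as 151 bp read pairs, per the labels' protocols, and the values used are gene-level expected counts of 18 libraries as deposited, which the authors made with RSEM 1.3.3, per the submitters' processing notes, which also name cutadapt 2.3, FastQC 0.11.8, STAR 2.7.8a, MultiQC 1.7, DESeq2 1.42.0 and GRCh38. Of 62714 rows, 4 reporter rows with 0 reads were left out. The values were whole numbers already. All 18 libraries were fitted together in 6 groups (R 4.3.3, edgeR 4.0.16, TMM, filterByExpr with a minimum count of 10, robust quasi-likelihood F test), which left 17030 genes and 12 residual degrees of freedom, and the spread is shared over the groups. Standard errors were derived from the fold change and F. Exact permutation tests and promoter scans used Python 3.11.15. Gene positions and overlaps are from GENCODE 29 (GRCh38), in which 58274 of 62710 gene identifiers matched. Named genes are MMP14, a set of defining genes, the 12 largest rises and 12 largest falls among called genes with separate groups and at least 5 CPM in the higher group, up to 6 called members of each role by size of change with at least 1 CPM, or 2 by level where fewer than 2 passed, and the 8 genes nearest to a difference between genotypes. The gene lists and members were chosen with earlier results of these data known. On simulated counts for this comparison with 16827 genes, 34% of genes with the smallest fold simulated, 82% of genes changed 1.5-fold and 98% of those changed 2-fold were recovered. The changed genes were drawn only from genes with counts well above the filter, and noise was drawn independently for each gene. Recovery of low genes, or under shifts that genes of a library share, was therefore not measured. Alternatives were DESeq2, limma-voom 3.58.1, other scalings and filters, a test against 1.2-fold, the 6 libraries alone, a replicate block and leaving out each library. Some genes that the rule names are not reported here.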

Additional observations from a re-analysis of the deposited data

How the results depend on the processing

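Of the 2248 genes called at 48 h against 24 h in control spheroids, 0 changed sign under any alternative run. Tested against a 1.2-fold change rather than against none, which asks for a larger change by construction, 325 genes were called, 125 higher and 200 lower, with 133 list members, 43 mitosis genes higher, 20 replication genes lower and 12 matrix genes lower. Leaving out 1 library at a time gave 1349 to 2027 calls, 604 to 898 higher and 745 to 1129 lower, fits with fewer samples, in which mitosis genes higher numbered 57 to 71, replication genes lower 38 to 68, immediate-early genes lower 29 to 31, inflammatory genes lower 9 to 13 and matrix genes lower 23 to 26. Inflammatory genes lower were 22 by DESeq2 and 26 without the filter on low counts, and the cause was not tested. Scaling by library size in place of TMM gave 899 higher and 1339 lower, a share of 40.2% higher against 47.9%. For the difference between the second days of control and targeted spheroids DESeq2 called 10 genes, leaving out 1 library gave 0 to 2, and removing the filter gave 240, 223 of which had passed the filter; the cause was not tested. The single-gene directions that turned were all of genes that had not passed: over the libraries left out, RPLP0 ranged between -0.0230 and 0.0636, MMP10 between -0.2899 and 0.1485, TIMP3 between -0.1961 and 0.0459 and CCN1 between -0.1346 and 0.0538. Same-numbered control libraries of 24 h and 48 h correlated weakly in their deviations from the group means (0.115, -0.047 and 0.0431). With 3 libraries a group these values cannot show whether the samples are paired. A fit of all 18 libraries with the replicate number as a block gave 2549 calls. In the 6 control libraries alone, the block gave 2959 calls against 1930 without it. Depth limits the low genes, where a change of a few reads was not detectable.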

Other observations

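Interferon-stimulated genes moved little on the second day after their fall on the first. Of 43 members 6 were higher and 3 lower at 48 h (14.0% and 6.98%, against 6.32% and 6.88% of all tested genes), with a median log2 fold change of 0.085. IFIT1, an interferon-induced RNA-binding protein, had 61.6, 61.6 and 61.4 CPM at 48 h, against 45.8, 41.1 and 42.8 CPM at 24 h (log2 fold change 0.51, SE 0.0615, adjusted p = 8.96e-06). STAT2, the transcription factor of the interferon response, had 73.9, 68.9 and 67.3 CPM at 48 h, against 89.4, 85.0 and 79.2 CPM at 24 h (log2 fold change -0.27, SE 0.0645, adjusted p = 0.00711). Antigen presentation genes had 1 of 23 higher and 2 lower, with HLA-DMA, which loads peptides on class II molecules, higher by 0.51 (SE 0.108).

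Of 25 chaperone and unfolded protein response genes of the endoplasmic reticulum 0 were higher and 6 lower at 48 h than at 24 h (24.0% lower, against 6.88% of all tested genes), with a median log2 fold change of -0.14 and HYOU1, such a chaperone, at 396, 398 and 398 CPM at 48 h, against 479, 452 and 464 CPM at 24 h (log2 fold change -0.23, SE 0.0455, adjusted p = 0.0019). Targets of ATF4, the factor of amino acid stress, had 4 of 32 higher (12.5%, against 6.32% of all tested genes) and 2 lower (6.25%), among them SLC7A5, an amino acid transporter, which rose by 0.36 (SE 0.0743). Among growth factors that are EGFR-family ligands or receptors, 2 of 9 were higher and 1 lower. HBEGF, a ligand of EGFR, had 113, 109.7 and 114 CPM at 48 h, against 144, 154 and 150.3 CPM at 24 h (log2 fold change -0.42, SE 0.0485, adjusted p = 5.71e-06). NRG1, a ligand of ERBB3 and ERBB4, had 128, 121 and 117 CPM at 48 h, against 96.2, 86.5 and 84.5 CPM at 24 h (log2 fold change 0.45, SE 0.0634, adjusted p = 4.91e-05). Vascular and other secreted factors had 1 of 19 higher and 5 lower. ANGPTL4, a secreted regulator of lipoprotein lipase that responds to low oxygen and to TGF-beta, had 22.4, 25.5 and 21.4 CPM at 48 h, against 47.7, 42.7 and 46.8 CPM at 24 h (log2 fold change -0.99, SE 0.172, adjusted p = 0.00197). On the opposite strand IFIT1 overlaps LIPA and HLA-DMA overlaps BRD2.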
